A study of Mus musculus with 4 samples.

Results

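T cell receptor gene segments were examined in mouse Th17 cells, CD4 helper T cells that secrete IL-17, after delivery of a CRISPR guide against Adarb1, the gene of the RNA-editing enzyme ADAR2. The segments are the V (variable), D (diversity), J (joining) and C (constant) pieces from which the receptor chains are assembled. Members were the rows annotated as V, D, J or C genes of the receptor in GENCODE mouse M21 with a mean normalized count of at least 10, and 114 of 226 annotated segments met this minimum in a table of 55450 genes. The mean normalized count is the authors' mean over all 4 libraries of counts divided by size factors. Of the 112 segments left out, 46 were listed at 0 and 66 lay above 0 but below the minimum. The members were thus chosen by their mean level, which is described without a test, and the fold changes took no part in the choice. Just inside the minimum were Trav6d-4 at 10.1, Trav10d at 10.3 and Trav3-1 at 10.5, and just outside it were Traj11 at 9.82, Trdv5 at 9.49 and Traj13 at 9.32 in the authors' deposited table.

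The groups were 2 sgAdarb1 Th17 cultures, which received the guide in the PSIN retroviral vector, and 2 cultures given the empty PSIN vector as their control. All 4 carried a Cas9 transgene per the genotype label, although the design text calls the mice wild type, so the control differs in lacking the guide. Naive CD4 T cells of mice 8 to 12 weeks old were activated for 24 h with anti-CD3 (0.25 µg/mL) and anti-CD28 (1 µg/mL), transduced by retrovirus, and then held for 72 h in TGF-β (0.3 ng/mL) and IL-6 (20 ng/mL), per the labels' protocols. There were 2 donor mice, each the source of a guide and a vector culture, and RNA was sequenced after ribosomal depletion. The groups follow the sample titles; the treatment tag disagrees with the title for 2 of the 4 samples, giving both cultures of replicate 2 the guide and both of replicate 1 the empty vector. A sort for transduced cells is not described in the labels. The p-values measure only the spread between these cultures.

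An αβ T cell carries a receptor of an alpha and a beta chain. Each chain is encoded by a V segment joined during thymic development to a J segment, with a D segment between them in the beta chain, and the joined exon is spliced to a C region. Different T cells use different V and J segments, so in a polyclonal culture the reads of a chain spread over many V and J segments but converge on few C regions. Gamma and delta chains form the receptor of a separate lineage, the γδ T cells, and the delta locus lies inside the alpha locus.

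The segments are short, and some are nearly the same as others, which bears on how reads could be assigned to them. The constant regions Trbc1 and Trbc2, which encode alternative C regions of the beta chain, differed at 1 of the 375 bases of their first exon. The stretch around that base is shown because it is the only place in this exon where a read can tell them apart, with the differing base in capitals and 30 bases on either side (mm10, plus strand, GENCODE M21 transcript sequences; chr6:41538447-41538507 for Trbc1 and chr6:41546959-41547019 for Trbc2).
Trbc1: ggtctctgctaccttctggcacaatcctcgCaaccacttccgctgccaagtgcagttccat
Trbc2: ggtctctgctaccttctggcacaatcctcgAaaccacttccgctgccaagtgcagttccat

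Among the members, the V segments Trav7-4 and Trav7d-4 of the alpha chain were the most alike pair by share of matching bases, with 2 differences over 451 bases (99.6% identity). The stretch around a differing base is shown as an example of the duplicated alpha V segments of mice (chr14:53461574-53461634 for Trav7-4 and chr14:52770228-52770288 for Trav7d-4, plus strand).
Trav7-4: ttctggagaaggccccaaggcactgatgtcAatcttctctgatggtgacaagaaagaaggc
Trav7d-4: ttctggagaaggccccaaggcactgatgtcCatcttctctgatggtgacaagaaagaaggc

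Members of the J class were 47 to 66 bases long and shared none of their 40-base windows with transcripts of other genes. The 3 highest alpha and the 3 highest beta J segments are shown because their levels lead their class. Capitals mark a phenylalanine codon (TTT or TTC) followed by a glycine codon (GGN), any codon and a further glycine codon, the coding form of the J region's conserved motif. On the coding strand, the motif was found in 30 of the 34 J members, in 55 of 70 annotated J segments (78.6%) and in 8 of 144 annotated V segments (5.56%).
Traj6: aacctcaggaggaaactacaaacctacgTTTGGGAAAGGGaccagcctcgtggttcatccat
Traj12: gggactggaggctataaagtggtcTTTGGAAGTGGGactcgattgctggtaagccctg
Traj18: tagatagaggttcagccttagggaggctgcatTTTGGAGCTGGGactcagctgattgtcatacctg
Trbj2-7: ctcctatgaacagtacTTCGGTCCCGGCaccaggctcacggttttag
Trbj2-1: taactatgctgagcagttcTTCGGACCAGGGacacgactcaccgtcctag
Trbj2-2: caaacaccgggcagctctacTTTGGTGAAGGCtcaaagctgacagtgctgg

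The beta D segments, which add diversity between V and J, are shorter still, and both are G-rich.
Trbd1: gggacagggggc
Trbd2: gggactgggggggc

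Constant regions held most of the signal. The summed mean normalized count of the members was 14320, or 0.081% of the whole table. Of this sum, 68.1% lay on the 7 C members, 26.1% on the 71 V members, 5.31% on the 34 J members and 0.493% on the 2 D members. By locus, 52.3% lay on beta, 45.1% on alpha, 1.65% on gamma and 0.859% on delta segments. These are shares of counts and are not corrected for length. Values of single cultures were not used, because the names of the 4 library columns match none of the sample labels, so each level below is a mean over both groups without a spread.

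**Figure D1:**
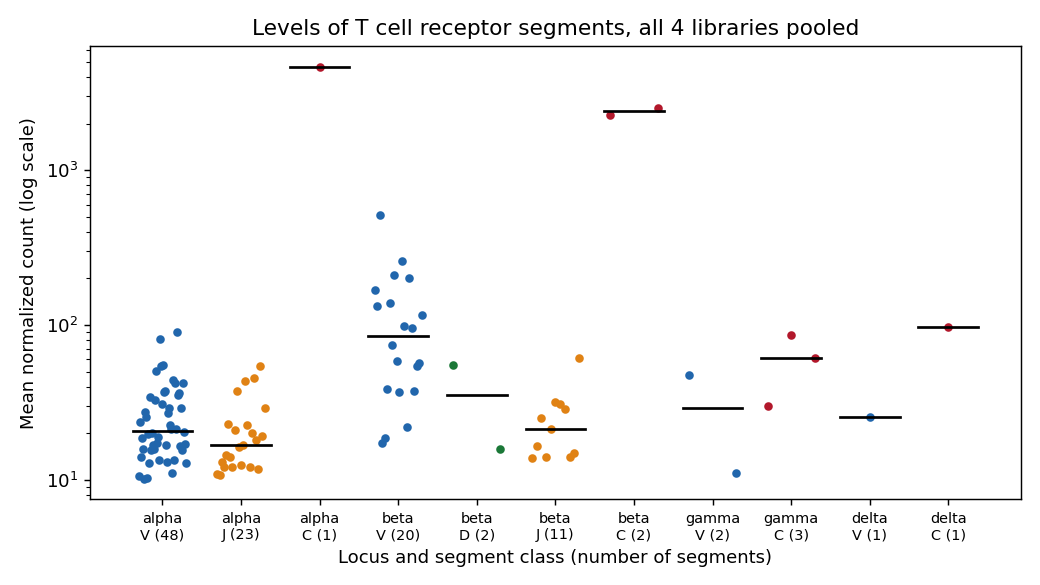
Mean normalized count (log scale) of each of the 114 members, by locus and segment class, with each point a segment and black bars marking class medians. Trac at 4682 and Trbc2 and Trbc1 at 2537 and 2263 stand above every V, D and J segment, of which Trbv3 at 517 was the highest.

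Trac, the constant region of the alpha chain (chr14:54220521-54224206, mm10), had the highest level of all members, 4682 normalized counts on average by the authors' deposited table. Trbc2 (chr6:41546730-41548352) and Trbc1 (chr6:41538218-41539881) had means of 2537 and 2263 in the authors' deposited table. Per kb of exon these levels were 5007 for Trac, 3666 for Trbc2 and 3021 for Trbc1. The near-identity of their first exons left 46.4% of Trbc2's and 42.8% of Trbc1's 40-base windows shared with the other gene, so the split of reads between them is uncertain, while their sum is less so. The constant regions of the γδ receptor were far lower. Trdc (chr14:54142851-54148868) had a mean of 97.7, Tcrg-C2 of 86.6, Tcrg-C4 of 61.5 and Tcrg-C1 of 29.9 in the authors' deposited table, or 25.3, 94.8, 62.4 and 32.4 per kb in the same order of genes. The fourth gamma constant region, Tcrg-C3, fell below the minimum at 3.03 by the authors' deposited table. Of the windows of Tcrg-C1 and Tcrg-C2, 42.4% and 34.9% were shared with other genes, and the exons of Trdc overlap those of Trdv5 and Gm43434.

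V segments of the beta chain spread over a wide range of levels. All but 2 of the 22 annotated beta V segments were members, and 8 of these had a mean of at least 100. Trbv3 led with a mean of 517 by the authors' deposited table, 21.9% of the beta V sum. Trbv15 followed at 259, Trbv13-2 at 211, Trbv19 at 202 and Trbv1 at 168 in the authors' deposited table. Next came Trbv13-1 at 139, Trbv2 at 134 and Trbv31 at 116 in the authors' deposited table; Trbv31 is the only member of the beta locus on the minus strand. At the low end were Trbv17 at 21.9, Trbv5 at 18.6 and Trbv4 at 17.2 in the authors' deposited table, and the exons of Trbv4 and Trbv5 overlap 5830405F06Rik. Per kb of exon, Trbv3 (1135), Trbv15 (699) and Trbv13-2 (622) kept the 3 highest places. No spread is attached to these levels, so neighbours in the order cannot be told apart.

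V segments of the alpha chain were more numerous and lower. Of 108 annotated, 48 were members, 38 were listed at 0 and 22 lay below the minimum. Their means lay from 10.1 to 89.8, with a median of 20.6. Highest were Trav4-4-dv10 at 89.8, Trav7-4 at 80.7 and Trav10 at 55.2 in the authors' deposited table, the first of which held 6.94% of the alpha V sum, against 21.9% for Trbv3 within its own class. The alpha V cluster of the mouse reference holds duplicated cassettes, named with d and n. Members came to 35 of 46 annotated segments without such a letter, to 7 of 34 d segments and to 6 of 28 n segments. Sharing of sequence was common here: 45 of the 48 alpha V members had at least 1 window of 40 bases in common with another gene and 25 had 50% or more, against 6 and 2 of the 20 beta V members. Among these, 30 alpha V members and no beta V member matched another annotated segment over at least 95% of their bases. How the authors' counting treated reads with several matches is not given by the sources used here. Depending on it, such segments could lose reads or exchange them. The alpha V segments listed at 0 had 89.7% to 100% of their windows shared with other genes. A 0 here therefore need not mean that a transcript was absent, and the part of read sharing in these levels was not tested.

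Summed per kb over a chain, V and C levels were of like size. Alpha V members summed to 3371 per kb, 67.3% of the 5007 of Trac, and beta V members summed to 5778 per kb, 86.4% of the 6688 of Trbc1 and Trbc2 together. With the annotated segments below the minimum added, the alpha and beta percentages were 72.0% and 86.9%. The sums are over pooled means, and the part of read sharing in the shortfall was not tested.

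J segments stood lower, and those of the alpha chain followed their place in the locus. Of 51 annotated alpha J segments 23 were members, as were 11 of 13 beta J segments. The highest alpha J segments were Traj6 at 54.4, Traj12 at 45.4 and Traj18 at 43.2 in the authors' deposited table. Traj18 is the J segment of the invariant alpha chain of NKT cells, although it is used by other T cells too. Within 20 kb upstream of Trac 10 of 14 annotated Traj segments were members, from 20 to 40 kb 12 of 19, and farther than 40 kb 1 of 18. The median levels in these stretches were 18.6, 12.0 and 2.09 normalized counts. Since reads can be longer than a J or D segment, no level per kb is given for them. Whether the reads on J and D segments came from joined and spliced transcripts was not tested. Their levels are therefore not a measure of how often a segment was used.

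**Figure D2:**
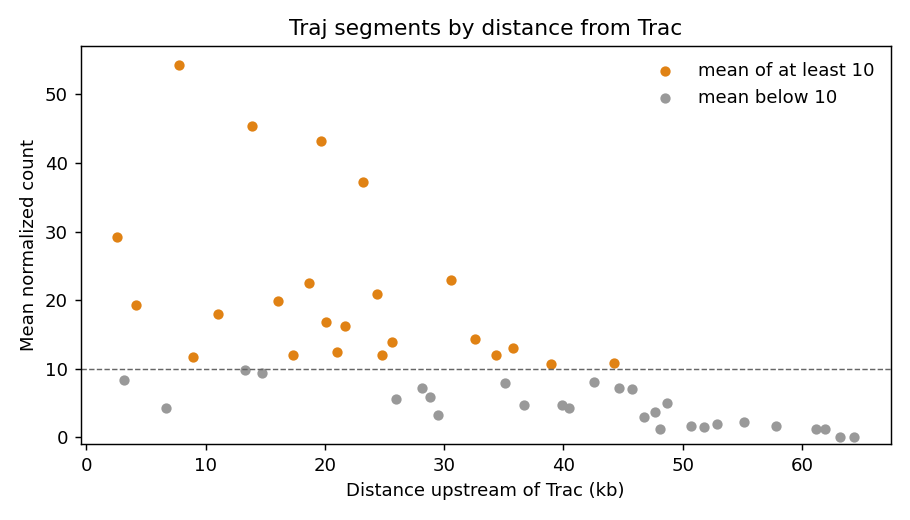
Mean normalized count of each annotated Traj segment against its distance upstream of Trac in kb, with members in orange, segments below the minimum of 10 in grey and the minimum as a dashed line. Levels above 40 lie within 20 kb of Trac, and the 1 member beyond 40 kb is Traj41 at 10.8.

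In the beta locus each of the 2 constant regions has its own J cluster. Trbj2-7 was the highest J segment of all at 61.2, followed in its locus by Trbj2-1 at 31.9 and Trbj2-2 at 30.8 in the authors' deposited table. The 6 Trbj2 members summed to 181 and the 5 Trbj1 members to 90.3. Trbd1 had a mean of 54.8 and Trbd2 of 15.8 in the authors' deposited table, for segments of only 12 and 14 bases.

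Gamma and delta segments other than constant regions were few. Of the gamma V segments, Trgv2 had a mean of 47.4 and Tcrg-V1 of 11.0 in the authors' deposited table, while the other 5 annotated ones fell below the minimum. Trdv1 was the member named as a delta V segment alone, at 25.3 in the authors' deposited table. Segments that carry both an alpha and a delta V name (dv), such as Trav4-4-dv10 at 89.8, were counted with the alpha locus. None of the gamma J segments, delta J segments or delta D segments reached the minimum.

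The comparison asked which of these transcripts differ between sgAdarb1 and empty vector cultures. No member passed the threshold: in the authors' deposited table (DESeq2), 0 of 114 members and 0 of all 29383 genes with a fold change (0%) had an adjusted p under 0.05. At an unadjusted p below 0.05 there were also 0 members, beside 61 of all 29383 genes (0.208%) and 60 of 14547 genes at or above the minimum mean of 10 (0.412%). All 114 intervals of the log2 fold change (95%, from the standard error) spanned 0. Adarb1 itself, the gene the guide targets, had a mean of 2130 and an estimate of 0.11 ± 0.12 by the authors' deposited table, so its RNA was not detectably lower in the cultures labelled sgAdarb1. RNA level need not show a cut in a gene, and the protein was not measured in these files. Of the Th17 markers, Il17a and Il17f, the cytokine genes of these cells, had means of 1756 and 3739 and estimates of 0.70 ± 0.15 and 1.11 ± 0.53 by the authors' deposited table (DESeq2), with adjusted p of 0.0709 and 1.00. The other 3 had means from 611 to 3789 and estimates of 0.12 ± 0.22 for Il23r, 0.07 ± 0.12 for Rora and -0.19 ± 0.49 for Ccr6 by the authors' deposited table. Fold changes are given as sgAdarb1 over empty vector, following the order of the design text; the table leaves the numerator unnamed, and the opposite order would turn every sign. In bulk RNA a smaller number of cells with a segment and less RNA per cell cannot be told apart.

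**Figure D3:**
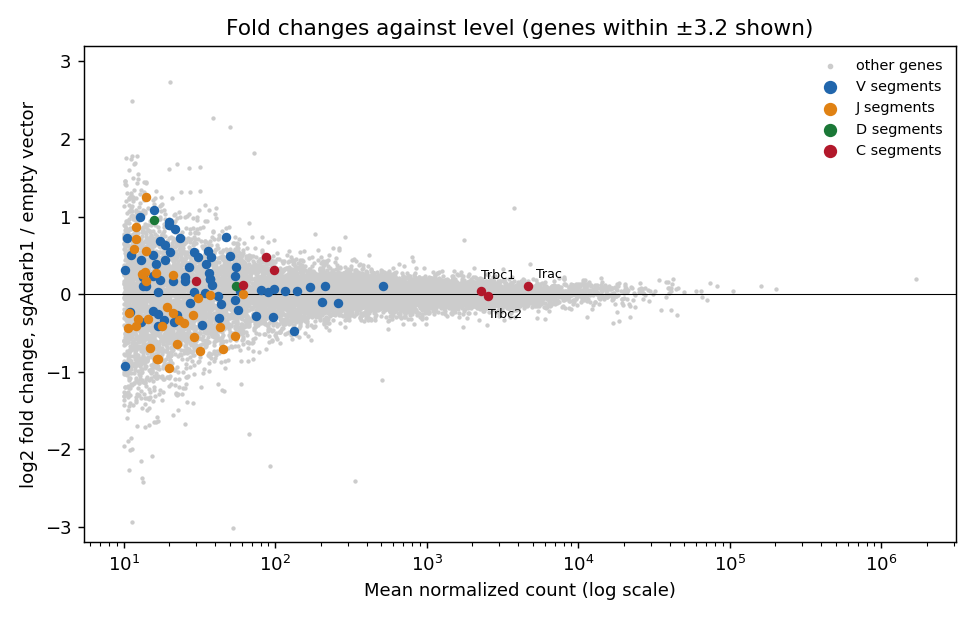
Log2 fold change (sgAdarb1 over empty vector) against mean normalized count (log scale) for V, J, D and C segments in colour and for other genes with a mean of at least 10 in grey; other genes beyond ±3.2 are not drawn. Trac, Trbc1 and Trbc2 lie close to 0, and the segments of low mean spread like other genes of low mean.

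For the constant regions of the αβ receptor the estimates were close to 0 and precise. Trac lay at 0.11 ± 0.10 (log2, SE) in the authors' deposited table, the unadjusted p being 0.256. Its 95% interval covers folds from 0.946 to 1.23. Trbc1 lay at 0.04 ± 0.12, with folds from 0.878 to 1.20, and Trbc2 at -0.03 ± 0.11, with folds from 0.840 to 1.14, in the authors' deposited table. Folds beyond these bounds lie outside the intervals.

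For the γδ receptor all 4 constant region members had positive estimates with wide errors. Tcrg-C2 lay at 0.48 ± 0.58 and Trdc at 0.31 ± 0.45, while Tcrg-C1 was at 0.17 ± 0.82 and Tcrg-C4 at 0.12 ± 0.61 in the authors' deposited table. The interval of Trdc covers folds from 0.669 to 2.28 and that of Tcrg-C2 folds from 0.638 to 3.05. Trgv2 was at 0.74 ± 0.74, Tcrg-V1 at -0.24 ± 1.32 and Trdv1 at 0.22 ± 0.86 by the authors' deposited table. The γδ lineage was also probed by other markers. Il23r, a cytokine receptor gene that Th17 cells express too, had a mean of 611, Blk of 85.9, Sox13 of 11.9, 5830411N06Rik of 3.05 and Cd163l1 of 1.76 in the authors' deposited table. The estimate of Sox13, a transcription factor of γδ T cells, was -0.06 ± 1.21 by the authors' deposited table. Blk was at -0.12 ± 3.97, Cd163l1 at -1.13 ± 3.27, 5830411N06Rik at 1.12 ± 2.36 and Il23r at 0.12 ± 0.22 by the authors' deposited table. These markers thus lay on both sides of 0. The error of Blk was far wider than the 0.58 of Tcrg-C2, which had a like mean of 86.6. Which cells held these marker transcripts was not tested.

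Beta V segments were split in direction. Of the 20 members 13 were positive and 7 negative, with a median of 0.05, beside 50.5% positive among all genes with a mean of at least 10. Trbv2 had the smallest unadjusted p of all members, 0.218, at -0.48 ± 0.39 in the authors' deposited table. Other negative estimates were Trbv20 at -0.30 ± 0.44, Trbv12-2 at -0.28 ± 0.50, Trbv29 at -0.21 ± 0.57 and Trbv15 at -0.12 ± 0.28 in the authors' deposited table. The most abundant beta V segments had small estimates. Trbv3 lay at 0.11 ± 0.21 and Trbv13-2 at 0.10 ± 0.30 in the authors' deposited table, and the interval of Trbv3 covers folds from 0.814 to 1.42. With the 14 members of a mean of at least 50 the split was 7 to 7 and the median -0.02.

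Among alpha V and alpha J segments the estimates leaned to opposite sides, each within its error. Of 48 alpha V members 35 were positive, with a median log2 fold change of 0.21, while 17 of 23 alpha J members were negative, with a median of -0.32. The share of positive values was 72.9% and 26.1%, against 50.5% over all genes with a mean of at least 10. With every segment that had a fold change counted, whatever its mean, 47 of 70 alpha V segments were positive and 30 of 49 alpha J segments negative. These counts carry no test, since reads of the same transcript can enter a V and a J segment and members are not replicates. Other short genes leaned the way of the J segments: 27 of 47 genes with at most 100 exon bases were negative, with a median of -0.11, and 70 of 108 genes with more than 100 and up to 300 bases, with a median of -0.08. Among 509 other genes of more than 300 and up to 700 bases, the span of most V segments, 266 were positive and the median was 0.02. The part of segment length in the lean was not tested.

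**Figure D4:**
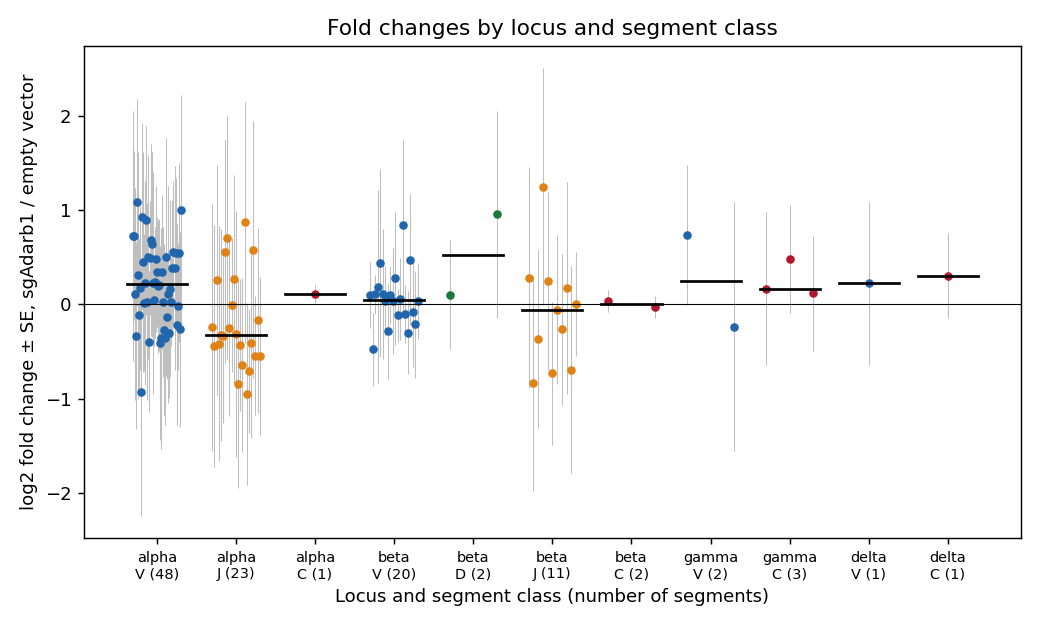
Log2 fold change (sgAdarb1 over empty vector) with its standard error as grey bars for each of the 114 members by locus and segment class, with black bars marking class medians. The alpha V median of 0.21 and the alpha J median of -0.32 lie on opposite sides of 0, and the bars of nearly all these segments are longer than the distance between the medians.

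The largest alpha V estimates among members with a mean of at least 50 were those of Trav14n-3 at 0.49 ± 0.60, Trav10 at 0.35 ± 0.58 and Trav8-1 at 0.23 ± 0.59 in the authors' deposited table. The highest alpha V segments lay nearer to 0, with Trav4-4-dv10 at 0.03 ± 0.46 and Trav7-4 at 0.05 ± 0.49 in the authors' deposited table. Trav7d-4, the near-copy of Trav7-4, lay at -0.11 ± 0.81 in the authors' deposited table. Over all alpha V members the estimates ran from -0.92 (Trav10d) to 1.08 (Trav6-2), both at means under 20. By shared sequence, 19 of the 25 alpha V members with 50% or more of their windows shared were positive, with a median of 0.23, and 16 of the other 23, with a median of 0.19. Without the segments that matched another over at least 95% of their bases, 15 of 18 alpha V members were positive, with a median of 0.49.

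All 3 leading alpha J segments were on the negative side. Traj12 lay at -0.70 ± 0.66 with an unadjusted p of 0.285, Traj6 at -0.54 ± 0.63 and Traj18 at -0.43 ± 0.70 in the authors' deposited table. Within 20 kb of Trac 8 of 10 Traj members were negative, with a median of -0.49, and from 20 to 40 kb 8 of 12, with a median of -0.28. Estimates over the alpha J members ran from -0.95 (Traj15) to 0.87 (Traj16). In the beta locus 6 of 11 J members were negative, with a median of -0.06. With every beta J segment that had a fold change counted, 8 of 13 were negative and the median was -0.27, against -0.29 for alpha J segments counted the same way. Trbj2-7 lay at 0.00 ± 0.55, Trbj2-1 at -0.73 ± 0.76 and Trbj2-2 at -0.06 ± 0.79 in the authors' deposited table. Trbj1-5, a segment close to the minimum mean, had the largest positive estimate of all members, 1.25 ± 1.25, in the authors' deposited table. The D segments Trbd1 and Trbd2 lay at 0.10 ± 0.58 and 0.95 ± 1.09 in the authors' deposited table. Whether alpha and beta segments, or V and J segments, differ in their response was not tested.

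The deposited standard errors of the segments were close to those of other genes at the same level. DESeq2 draws the estimated spread of each gene toward a trend over the mean. This closeness is therefore no measure of how the segments themselves varied between cultures. The standard error of a member divided by the median over the 200 other genes of nearest mean ran from 0.973 to 1.22, with a median of 0.993. The class medians were 0.990 for V, 1.01 for J, 0.992 for D and 1.02 for C members. Only 2 members exceeded 1.1, Tcrg-C2 at 1.22 and Trgv2 at 1.17, both of the gamma locus. Wald statistics are log2 fold changes over their standard errors. Their standard deviation was 0.516 over the members and 0.585 over all genes with a mean of at least 10. Both are below the spread of calibrated Wald statistics without any difference, and 0.412% of these 14547 genes had an unadjusted p below 0.05. The deposited Wald test was thus conservative here, so a lack of calls need not mean a lack of change. To reach an unadjusted p of 0.05, a log2 fold change had to be 0.19 at the standard error of Trac, 0.93 at the median of beta V, 1.84 at the median of alpha V and 2.16 at the median of alpha J members.

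**Figure D5:**
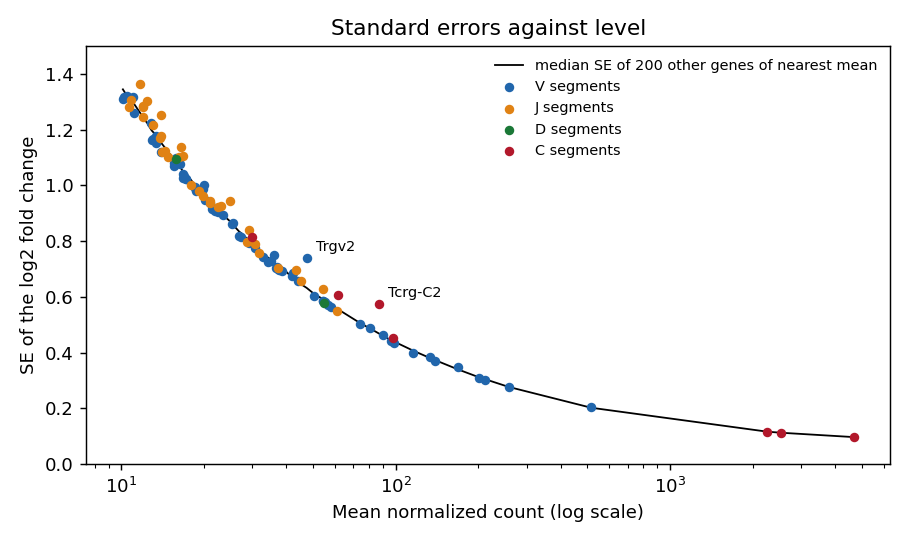
Standard error of the log2 fold change against mean normalized count (log scale) for each member, with the line giving the median standard error of the 200 other genes of nearest mean. V, J, D and C segments follow the line, and Trgv2 and Tcrg-C2 lie above it.

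Genes that act with the receptor were read beside the segments. The CD3 chains, which carry the receptor's signal into the cell, and the co-receptor Cd4 were all high, with means from 2463 for Cd3d to 15286 for Cd4 in the authors' deposited table. All 5 estimates were small and positive, among them Cd4 at 0.09 ± 0.08, Cd3d at 0.12 ± 0.12 and Cd3e at 0.06 ± 0.10 in the authors' deposited table. The recombinase genes Rag1 and Rag2, which join segments in the thymus, were listed at 0, while Dntt, which adds bases at the junctions, had a mean of 0.996 and Ptcra, the partner of the beta chain in thymocytes, of 0.261 in the authors' deposited table. Of 27 genes of the receptor complex, recombination, proximal signalling and the transcription factors of T cells, 23 had a mean of at least 10; 15 of these were positive and 8 negative, with a median of 0.04, and 0 passed the adjusted threshold. The smallest unadjusted p among them was 0.118, for Lat, an adaptor of receptor signalling, at 0.16 ± 0.11 in the authors' deposited table.

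Markers of other lymphocytes were present. Cd8a and Cd8b1, the co-receptor chains of CD8 T cells, had means of 287 and 218 and lay at 0.74 ± 0.71 and 0.20 ± 0.30 in the authors' deposited table. For NKT cells, Zbtb16 had a mean of 33.8 and lay at 0.62 ± 0.80, and Klrb1c had a mean of 6.57 and lay at -0.98 ± 2.04 by the authors' deposited table. The B cell receptor genes Cd79a and Cd79b had means of 129 and 134 and lay at -0.13 ± 0.51 and 0.43 ± 1.00 in the authors' deposited table. Cells of these types could hold receptor transcripts of their own or none, and their part in the segment values was not tested.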

How the data were processed

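RNA was measured in 2 sgAdarb1 and 2 empty vector cultures. STAR 2.6.1a, featureCounts and DESeq2 1.18.1 with mm10 are named in the submitters' processing notes; the model formula, strand setting and treatment of multiply matching reads are not given by the sources used here. The authors' deposited table, per the file headers, holds a mean signal (size-factor normalized counts averaged over libraries), log2 fold changes and their standard errors, a Wald score, and p-values, unadjusted and adjusted. The 4 columns of library values match no sample label and were not used, so depth, spread per culture and refits were not computed. All 55450 identifiers matched GENCODE M21. The members and lists were chosen with earlier results of these data known. Python 3.11.15 (pandas 2.3.3) gave counts, medians, per-kb levels (mean over exon bases) and windows of 40 bases shared with other GENCODE transcripts on either strand; BLAST+ 2.17.0 gave identities as matching bases over segment length. Benjamini-Hochberg adjustment was tested on simulated data. Named segments were all C and D members, the 3 highest V and J members per locus, the 5 largest estimates in each direction at a mean of at least 50 and the 5 smallest p; others are given as ranges or examples chosen after their values were seen. Alternatives concerned the adjustment, the minimum mean, centring, annotation and sequence sharing. Part of the B cell marker list is not reported here.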

Additional observations from a re-analysis of the deposited data

How the results depend on the processing

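No member passed under any setting run: 0 of 114 did so at an adjusted p of 0.1, with the adjustment limited to genes at or above a mean of 10 or 50, or with Wald statistics scaled by their own spread, where the smallest adjusted p was 0.583. Without the scaling no member could have passed. The smallest unadjusted Wald p of a member was 0.218, for Trbv2, and an adjusted p is never below the unadjusted one. Of 84 list medians under 7 alternative settings, 82 kept their sign. Both that turned did so at a minimum mean of 50, beta V at -0.02 and beta J at 0.00, the second with 1 member left. The median of all genes with a mean of at least 10 was 0.00 (log2), and centring on it changed no sign. Leaving out near-identical segments took away 30 alpha V members and 0 J members, and the alpha V median rose from 0.21 to 0.49. The median over the whole alpha locus was then 0.02, against 0.11 with them, and the median of all members 0.04, against 0.10. At a minimum of 50 the median of all members was also 0.04. No median moved by more than the median standard error of its members. That is the error of a single segment and a wide margin for a median over many, so it does not show that the medians were stable. No paired analysis was possible because no library column matches a label. For that reason edgeR, DESeq2 with other size factors, no filter on low counts and omission of a culture were not run. At low means the deposited standard errors limit what could be seen.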

Other observations

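Pseudogene segments, which stand outside the members, were also covered by reads. Trbj2-6 had a mean of 30.2 normalized counts and lay at -0.25 ± 0.78 (log2, SE) in the authors' deposited table. Its level was between those of Trbj2-5 at 14.8 and Trbj2-7 at 61.2, the members numbered on either side of it. Traj14 and Trav8-2 had means of 12.6 and 12.0 and lay at 0.35 ± 1.19 and 0.50 ± 1.21 in the authors' deposited table.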
